A study of Zea mays with 6 samples.

Results

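In mature anthers of maize, 133 of 31470 listed genes made up a set with much higher transcript levels in a double mutant of ZmCOI2a and ZmCOI2b than in wild type. The members were chosen on these same values. On the scale log2(FPKM + 1), where FPKM is the number of fragments per kilobase of gene, scaled to the depth of the library, the mutant mean had to exceed the wild-type mean by 1.5 or more. The lowest mutant library also had to lie above the highest wild-type library, and the mean of the mutant libraries had to reach 5 FPKM. Only genes with identifiers beginning Zm00001d were eligible, and 9 identifiers given as flavonoid enzymes were set aside. The difference between genotypes is therefore a property of the choice, and it is described here without a test.

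Both groups were mature anthers of the inbred line B104, with 3 libraries of genotype ZmCOI2a-/-,ZmCOI2b-/- and 3 labelled wild type. The labels give neither the kind of mutation nor how many plants or anthers entered a library, and they do not tell separate plants from repeat samples of the same plants. Any p-value therefore reflects only how these samples vary, part of which may be technical. RNA came from whole anthers, so more cells of a type and more RNA per cell cannot be told apart.

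COI proteins are the F-box parts of a ubiquitin ligase that perceives the hormone jasmonate. With the hormone bound, they mark JAZ repressor proteins for breakdown, which frees MYC-type transcription factors to act on their target genes. In Arabidopsis and rice, loss of jasmonate synthesis or perception is known to disturb the opening of the anther and the fertility of pollen. The title of the series names anther dehiscence and gametophytic male fertility as processes that ZmCOI2a and ZmCOI2b control redundantly. The comparison sets the anthers labelled as mutant in both genes beside wild type.

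The deposited tables do not pair the Zm00001d identifiers with gene names, and 0 of the 133 matched the RefSeq gene table used. The members are given by position on B73 RefGen_v4, with identifiers for the 2 largest differences, and no function is assigned to them. The anther label and the targeted genes were not checked on named transcripts. Library totals recovered from the values ran from 16845656 to 17759978 counted reads. The median member had 309 reads in its lowest mutant library. The lowest mutant value of any member rested on 9 reads, and it was the only member under 10 reads in a mutant library.

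Each limit of the rule removed some genes. Of the Zm00001d genes, 175 had a difference of 1.5 or more, and 157 of these also had a mutant mean of at least 5 FPKM. The groups overlapped in 18 of the 157, which left 139. Of the 9 flavonoid identifiers, 6 met the same limits, with differences from 2.202 to 4.45 on the log2(FPKM + 1) scale, and their removal gave the 133. A further 18 genes had the difference and the separation of groups but a mutant mean under 5 FPKM. Among identifiers of other kinds, 0 met the limits.

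The rule favours a low wild-type level, since the wild-type mean had to lie well below the mutant mean, so the levels in wild type are a description of the choice. The median over members of the wild-type mean was 4.07 FPKM, against 6.52 FPKM over the 18984 genes that had at least 1 FPKM in at least 3 libraries, and 81 of the 133 lay below the latter value. In the mutant the median of the member means was 20.1 FPKM, with a range from 5.45 to 297. A mutant mean under 10 FPKM was found for 26 members, at least 50 FPKM for 23 and at least 100 FPKM for 6. The wild-type mean was 10 FPKM or more in 29 members and under 1 FPKM in 8, which entered the tested genes mainly through their mutant libraries.

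**Figure D1:**
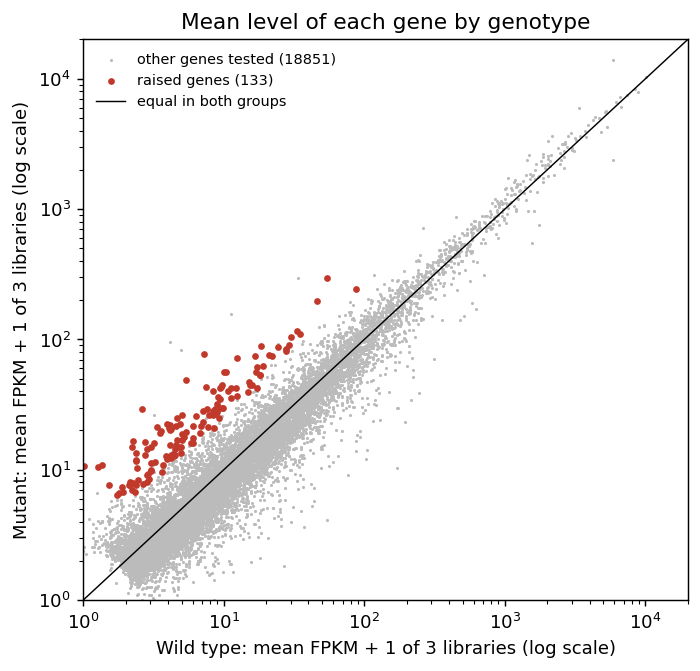
Mean FPKM + 1 of the 3 mutant libraries against that of the 3 wild-type libraries, both on log axes, for the 133 raised genes (red) and the other genes tested (grey), with a line of equal values. The raised genes lie above the line by their choice, with wild-type means up to 85.6 FPKM and mutant means up to 297 FPKM.

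The median difference over the 133 members was 1.84 on the log2(FPKM + 1) scale, with quartiles of 1.67 and 2.22 and a highest value of 3.54. Over all 18984 genes tested the median difference was -0.20, so on the deposited scale a typical gene was slightly lower in the mutant. Whether this comes from the scaling of the libraries was not tested. A difference of 2 or more was reached by 47 members and 3 or more by 4. As a ratio of mean FPKM, the median member was 4.30 times higher in the mutant, and the smallest ratio was 2.56.

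The largest difference was at Zm00001d043047 on chromosome 3 (187342506 to 187347984). It was at 101, 81.1 and 46.8 FPKM in mutant replicates 1, 2 and 3, and at 9.55, 1.92 and 7.27 FPKM in wild-type replicates 1, 2 and 3. Its means were 76.1 ± 27.2 and 6.24 ± 3.92 FPKM (SD, n = 3 each), a difference of 3.54. The lowest mutant library was 4.90 times the highest wild-type library, and the lowest values of the groups were mutant replicate 3 and wild-type replicate 2.

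The same libraries were the lowest of their groups at Zm00001d034925, a gene counted over a single unbroken segment on chromosome 1 (305698918 to 305700369). Its values were 38.4, 32.4 and 13.9 FPKM in the mutant and 1.87, 0.736 and 2.30 FPKM in wild type, a difference of 3.40. The chromosome 5 gene at 12111433 to 12113050 was at 52.4, 68.0 and 23.8 FPKM in the mutant and 5.54, 2.14 and 5.43 FPKM in wild type, a difference of 3.14. Here too, mutant replicate 3 and wild-type replicate 2 held the least. The chromosome 5 gene was the only member that overlaps another listed gene. That neighbour lies on the opposite strand and reached at most 0.899 FPKM in any library.

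Among the members with the largest differences, 3 were close to silent in wild type. At 167821561 to 167825000 on chromosome 3, transcript levels were at 9.23, 11.7 and 7.82 FPKM in the mutant, from 324, 411 and 277 reads, while wild type gave 1, 1 and 0 reads. This gene was the only member with at most 1 read in every wild-type library, and its difference was 3.36. Another gene on chromosome 3 (56852785 to 56854547) was at 12.1, 11.6 and 4.66 FPKM in the mutant and 0.317, 0.289 and 0.207 FPKM in wild type. On chromosome 8, the gene at 2109803 to 2110486 was at 14.4, 10.9 and 4.28 FPKM against 0.592, 0.260 and 0.249 FPKM. In these last genes the mutant values of replicate 3 were under 0.5 of those in replicate 1, and still 14.7 and 7.23 times the highest wild-type value.

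Of the 20 largest differences, 2 came from genes whose highest mutant library was replicate 3. A gene on chromosome 5 (14348002 to 14350848) was at 13.5, 13.2 and 14.7 FPKM in the mutant and at 1.74, 1.14 and 0.729 FPKM in wild type, a difference of 2.77. At 7227195 to 7227956 on chromosome 7, transcript levels were at 16.2, 19.0 and 21.1 FPKM against 2.43, 2.49 and 2.75 FPKM, a difference of 2.47. Both had mutant libraries close to each other, the highest being 1.12 and 1.31 times the lowest.

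Also among the 20 largest differences were 3 genes with mutant means between 50 and 100 FPKM and wild-type means near 10 FPKM. On chromosome 9, the gene at 118315435 to 118316761 was at 72.7, 88.9 and 52.8 FPKM in the mutant and 11.6, 6.25 and 16.3 FPKM in wild type, a difference of 2.61. The chromosome 1 gene at 199913788 to 199915380 was at 70.7, 49.7 and 43.7 FPKM against 10.4, 3.54 and 14.1 FPKM, a difference of 2.57. A gene on chromosome 7 (16651548 to 16654382) was at 71.3, 65.0 and 30.6 FPKM against 12.3, 5.87 and 8.99 FPKM, a difference of 2.46. In all 3 genes the lowest mutant library was replicate 3 and the lowest wild-type library was replicate 2.

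The remaining members among the 20 largest differences lay between 2.36 and 2.63 on the log2(FPKM + 1) scale. On chromosome 4, the gene at 241949508 to 241950525 was at 51.5, 49.1 and 25.2 FPKM in the mutant and 8.55, 2.11 and 8.87 FPKM in wild type. The chromosome 9 gene at 43464382 to 43465872 was at 13.2, 19.997 and 12.6 FPKM against 2.54, 1.05 and 1.65 FPKM. A gene at another place on chromosome 9 (157714272 to 157715705) was at 16.0, 14.1 and 7.35 FPKM against 1.54, 0.543 and 1.98 FPKM. These 3 genes also had mutant replicate 3 and wild-type replicate 2 as the lowest of their groups. On chromosome 3, a gene at 225456709 to 225460729 was at 29.8, 22.1 and 11.2 FPKM in the mutant and 4.58, 2.59 and 2.202 FPKM in wild type.

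**Figure D2:**
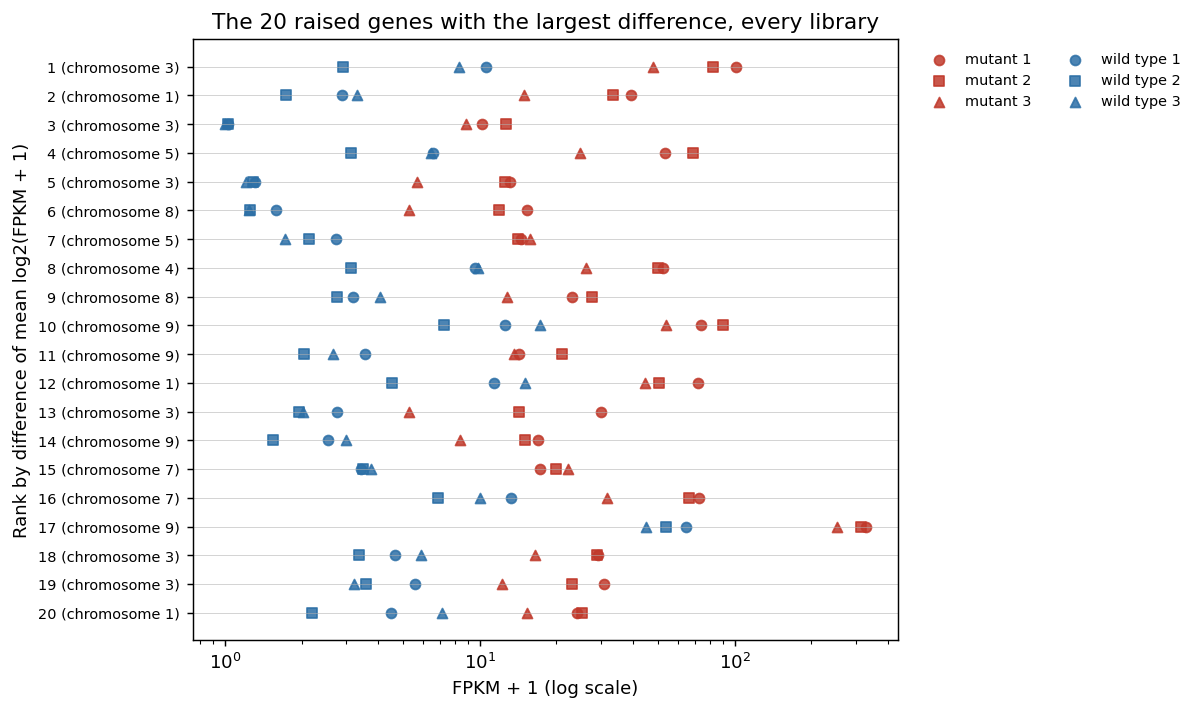
FPKM + 1 on a log axis in every library for the 20 raised genes with the largest difference, ranked from 1 to 20 and labelled by chromosome. Mutant libraries are red, wild-type libraries blue, and the marker gives the replicate number. Mutant replicate 3 (red triangles) is the lowest mutant library in 18 of the 20 rows, and rows 7 and 15 are the exceptions described in the text.

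The summed FPKM of the 133 members was 5192, 4699.9 and 3323 in mutant replicates 1, 2 and 3, and 1102, 823 and 1316 in wild-type replicates 1, 2 and 3. Of all FPKM of a library, these sums were 0.703, 0.608 and 0.474% in the mutant, against 0.147, 0.119 and 0.174% in wild type. The means were 4405 ± 969 and 1080 ± 247 FPKM (SD, n = 3 each). Even in the mutant the set was a small part of the anther transcriptome, and the 10 most abundant members held 32.0% of its summed mutant level.

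The most abundant member lies on chromosome 9 (2067198 to 2068863). It was at 327, 312 and 251 FPKM in the mutant and 63.6, 52.8 and 44.1 FPKM in wild type, a difference of 2.46. Its mutant libraries stayed within 1.30-fold of each other, so it was among the more even members as well as the highest.

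The next by mutant mean lies on chromosome 1 (45286331 to 45290076), with 181, 215 and 328 FPKM in the mutant and 114, 53.9 and 89.3 FPKM in wild type. It is also the member closest to the limit of the rule, at a difference of 1.504, and replicate 3 is its highest mutant library. A gene on chromosome 6 (158313985 to 158316132) had replicate 3 as its lowest mutant library, with 266, 230 and 89.3 FPKM in the mutant against 47.2, 22.3 and 65.9 FPKM in wild type. Its mutant replicate 3 was 1.35 times wild-type replicate 3, the narrowest separation among the 6 members above 100 FPKM.

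The other 3 members with a mutant mean above 100 FPKM had moderate differences, from 1.64 to 1.78. On chromosome 5, a gene at 168752444 to 168755159 was at 158, 117 and 73.1 FPKM in the mutant and 40.3, 30.3 and 26.2 FPKM in wild type. Farther along the same chromosome, a gene at 199270955 to 199272496 was at 127, 113 and 84.9 FPKM against 29.2, 32.8 and 39.5 FPKM. On chromosome 4, a gene at 157872166 to 157873662 was at 134, 96.8 and 79.4 FPKM against 24.5, 27.6 and 34.8 FPKM. In all 3 the lowest mutant library was replicate 3, and the groups lay at least 1.81-fold apart.

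Below 100 FPKM, the next 4 by mutant mean differed in how far the groups stood apart. At 47746695 to 47747102 on chromosome 9, transcript levels were at 147, 77.8 and 45.7 FPKM in the mutant and 32.5, 12.5 and 39.2 FPKM in wild type, so that the nearest libraries of the groups differed only 1.17-fold. A gene on chromosome 5 (214080739 to 214082961) was at 120, 87.9 and 55.5 FPKM against 12.9, 10.6 and 28.6 FPKM. The chromosome 8 gene at 88820372 to 88824486 was at 99.3, 77.2 and 72.0 FPKM against 23.9, 26.0 and 30.7 FPKM, with the nearest libraries 2.35-fold apart. At 219453611 to 219454543 on chromosome 3, transcript levels were at 87.5, 114 and 59.4 FPKM against 19.7, 11.1 and 39.0 FPKM. In all 4 the wild-type library with the highest value was replicate 3.

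The order of libraries within a group comes from the same values that chose the members, and the genes set beside them were not chosen, so it is given as a description only. Mutant replicate 3 was the lowest mutant library in 107 of 133 members (80.5%), against 42.2% of the 9944 tested genes with a mutant mean of at least 5 FPKM. Wild-type replicate 2 was the lowest wild-type library in 80 members (60.2%), against 40.3% of those genes. Both held at once in 69 members, and of the 26 members whose lowest mutant library was another, 11 had wild-type replicate 2 lowest. The highest wild-type library was replicate 3 in 73 members (54.9%), close to the 53.6% of the same 9944 genes. The requirement that all mutant libraries lie above all wild-type libraries acts on each gene's lowest mutant and highest wild-type value.

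For the median member, mutant replicate 3 stood at 0.652 of the mean of mutant replicates 1 and 2, while the median over the tested genes with a mutant mean of at least 5 FPKM was 0.978. The highest mutant library was 1.81 times the lowest in the median member and 1.31 times in the median of those genes. Against the wild-type mean, the median difference over members was 2.15 in mutant replicate 1, 2.02 in replicate 2 and 1.51 in replicate 3, on the log2(FPKM + 1) scale. With mutant replicate 3 taken alone, 67 of the 133 members still differed by 1.5 or more from the wild-type mean. The part of this library in the level of the set was not tested beyond leaving it out.

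**Figure D3:**
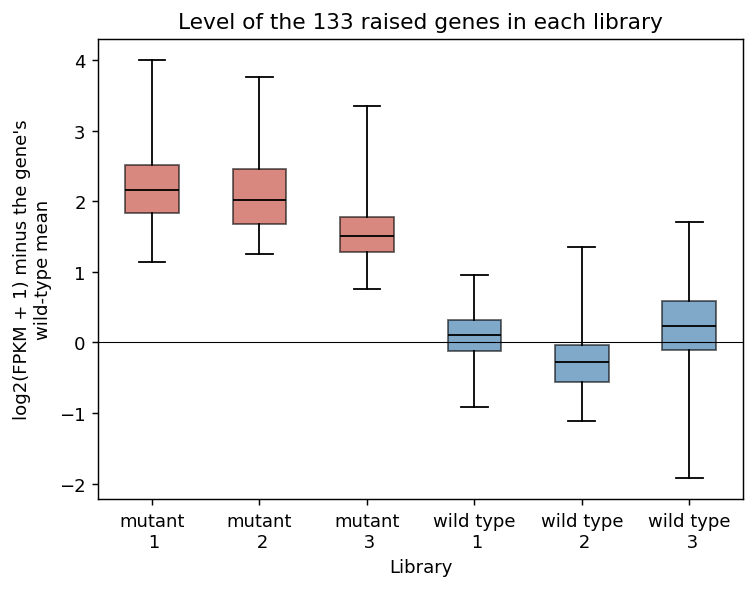
Level of the 133 raised genes in each library as log2(FPKM + 1) minus the gene's own wild-type mean, with boxes for quartiles, a line for the median and whiskers to the lowest and highest gene. The medians of mutant replicates 1, 2 and 3 are 2.15, 2.02 and 1.51, and wild-type replicate 2 has the lowest median of the 6 libraries.

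The members differed among themselves in how even the mutant libraries were. In 40 members the 3 mutant libraries lay within 1.5-fold of each other. The most even was a gene on chromosome 1 (205442994 to 205443842), at 26.0, 27.9 and 25.7 FPKM in the mutant and 7.63, 7.90 and 8.48 FPKM in wild type. Both genotypes of this gene were narrow, and the lowest mutant library was 3.03 times the highest wild-type one.

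At the other end, mutant replicate 3 held under 0.5 of the mean of replicates 1 and 2 in 37 members. The steepest case was a gene on chromosome 3 (234824366 to 234825497), at 28.9, 13.2 and 4.27 FPKM in the mutant and 1.75, 0.959 and 1.03 FPKM in wild type. A gene on chromosome 2 (14789774 to 14791788), the member with the largest difference on that chromosome, was at 26.4, 14.0496 and 4.93 FPKM against 2.17, 1.64 and 2.69 FPKM. In these genes the highest mutant library held 6.77 and 5.36 times the transcript of the lowest, a wider span than between replicate 3 and any wild-type library.

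Replicate 3 was above the mean of the other mutant libraries in 16 members. The widest such ratio, 3.69, was at a short gene on chromosome 6 (161183072 to 161183254), at 7.15, 4.36 and 21.2 FPKM in the mutant and 0.316, 1.30 and 2.48 FPKM in wild type. These values rest on 23, 14 and 69 mutant reads against 1, 4 and 8 wild-type reads, so counting error is large. These examples were picked once the values were known.

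The distance between the groups also varied. The lowest mutant library was at least 2 times the highest wild-type library in 79 members, and the median ratio was 2.16. In 7 members that ratio was under 1.1. The narrowest, 1.004, was at a gene on chromosome 9 (1245653 to 1246790), with 30.5, 15.1 and 15.7 FPKM in the mutant and 2.64, 2.56 and 15.0 FPKM in wild type. On chromosome 5, the gene at 214474686 to 214475630 was at 47.5, 38.5 and 37.7 FPKM against 5.88, 5.09 and 37.3 FPKM. In both, wild-type replicate 3 reached the mutant level while the other wild-type libraries stayed several times lower.

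Low reads in wild type mark another subset. Fewer than 10 reads were found in every wild-type library for 7 members, and 3 members had a wild-type library with 0 reads. Besides the chromosome 3 gene above, these were a gene on chromosome 1 (212207299 to 212207712), with 80, 29 and 35 mutant reads against 10, 0 and 14 wild-type reads, and a gene on chromosome 5 (180575163 to 180575399), with 35, 26 and 9 reads against 0, 2 and 8. In the last of these, the nearest libraries of the groups held 9 and 8 reads, or 2.14 and 1.91 FPKM.

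Just inside the difference limit lay the chromosome 1 gene above at 1.504, a gene on chromosome 3 (175269648 to 175270724) at 1.51 and a gene on chromosome 8 (70664935 to 70665783) at 1.52. The chromosome 3 gene was at 16.4, 16.2 and 12.3 FPKM in the mutant and 7.20, 5.51 and 2.26 FPKM in wild type. Just outside were genes on chromosome 4 (180604677 to 180607029) at 1.499, on chromosome 8 (94844625 to 94845188) at 1.496 and on chromosome 5 (155926763 to 155927329) at 1.49. The chromosome 4 gene was at 31.5, 37.4 and 31.6 FPKM in the mutant and 14.4, 10.3 and 9.42 FPKM in wild type.

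Membership depended on single libraries. Applied to the other 5 libraries, the rule kept 129 of the 133 without mutant replicate 3 and added 73 other genes, for 202 in all. Without wild-type replicate 3 it kept 122 and added 91, for 213. Without mutant replicate 1 or wild-type replicate 2 it lost 28 members each, and 78 members met the rule whichever library was left out. With median-of-ratios scaling, which moves the median difference of all tested genes from -0.20 to 0.03, all 133 were kept and 217 genes met the rule.

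All 133 members passed the filter of at least 1 FPKM in at least 3 libraries. By limma on log2(FPKM + 1) over all 18984 tested genes, 114 of the 133 were called higher in the mutant at an adjusted p under 0.05, beside 1.90% of all genes tested, and 19 were not called. Calls in either direction made up 6.65% of all genes tested. The groups were apart with the mutant above in 7.27% of all genes tested and the difference limit was met in 0.917%. The rule used this contrast, so nothing is read from the count. It fell to 22 without mutant replicate 1 and to 17 without mutant replicate 2, where 0.158 and 0.132% of all genes tested were called higher. Without wild-type replicate 1 or 2 it was 75 or 82, beside 0.716 or 0.843% of all genes tested. It was 59 when all 31470 listed genes were tested, beside 0.397% of them. Without mutant replicate 3 it was 105, beside 1.57%.

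The members were spread over all 10 chromosomes, with 1 on an unplaced contig. Chromosome 1 held 24, chromosome 9 held 19, chromosome 5 held 18 and chromosome 3 held 17. Chromosome 9 carried 14.3% of the members and 7.23% of the tested genes, the widest excess among the 10 chromosomes. Chromosome 2 carried 7 members (5.26%) against 11.5% of the tested genes, and chromosome 10 carried 3 (2.26%) against 6.23%. The shares of chromosomes 5, 6, 7 and 8 differed from those of the tested genes by less than 1.5 percentage points.

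**Figure D4:**
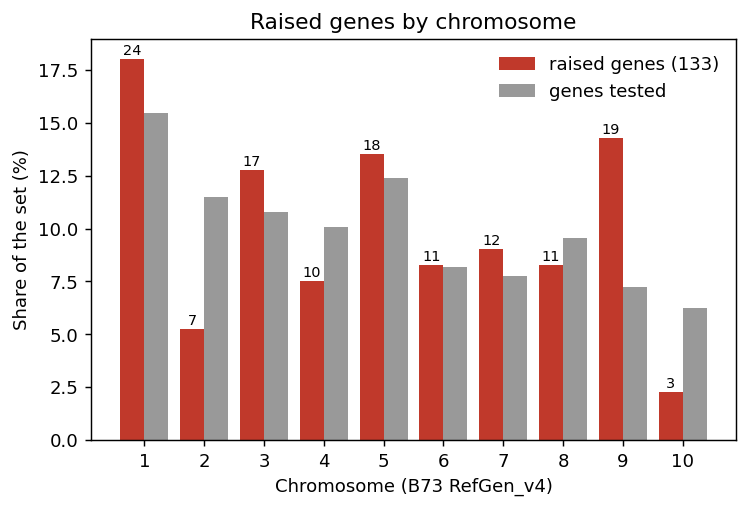
Share of the 133 raised genes (red, with the number of genes above each bar) and of all genes tested (grey) on each of the 10 chromosomes, in percent. Chromosome 9 holds 14.3% of the raised genes and 7.23% of the tested genes, and chromosomes 2 and 10 hold smaller shares of the raised genes than of the tested ones.

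The median difference of the 19 members on chromosome 9 was 1.83 on the log2(FPKM + 1) scale, beside 1.84 for the 24 members on chromosome 1 and 1.85 for the 18 on chromosome 5. Chromosome 3 had the highest median, 2.24 over 17 members. Chromosome 6 was led by a gene at 153761010 to 153764311, with 36.1, 27.9 and 11.5 FPKM in the mutant and 3.45, 2.44 and 6.34 FPKM in wild type. Chromosome 10 was led by a gene at 100773356 to 100775278, with 21.8, 23.1 and 13.1 FPKM against 3.45, 3.50 and 2.45 FPKM. These leading genes, too, were picked once the values were known.

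Few members were neighbours. Only 1 pair lay within 100 kb, on chromosome 3, where no other listed gene separates the nearly silent gene at 56852785 to 56854547 from a second member at 56947607 to 56948312. The second was at 53.5, 47.9 and 22.6 FPKM in the mutant and 10.4, 3.08 and 11.5 FPKM in wild type, a difference of 2.25 beside 2.94. Both genes lie on the minus strand, 93059 bases apart, and in both mutant replicate 3 was the lowest mutant library.

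At up to 200 kb there were 3 further pairs. On chromosome 1, Zm00001d034925 had a member 115154 bases before it (305581369 to 305583763), at 23.2, 24.2 and 14.3 FPKM in the mutant and 3.47, 1.20 and 6.11 FPKM in wild type. The 4 listed genes between them had differences from -1.06 to -0.22, beside a median of -0.20 over all tested genes. On chromosome 3, a member at 198236667 to 198237919 was at 28.0, 27.9 and 15.5 FPKM against 3.65, 2.36 and 4.90 FPKM. Its partner at 198073030 to 198076070 was at 6.93, 6.33 and 3.08 FPKM against 0.879, 0.644 and 0.714 FPKM, the lowest mutant mean of any member. On chromosome 8, a member at 177024258 to 177024629 was at 22.0, 26.5 and 11.8 FPKM against 2.18, 1.76 and 3.05 FPKM, and its partner at 176853051 to 176855156 was at 91.7, 78.2 and 50.4 FPKM against 15.5, 15.9 and 31.5 FPKM.

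Of 263 listed genes directly beside a member, 156 were tested, and their median difference was -0.12 on the log2(FPKM + 1) scale, beside -0.20 for all tested genes. Of the 156, 6 were called higher by limma (3.85%, against 1.90% of all genes tested) and 8 lower (5.13%, against 4.75%). With median-of-ratios scaling, added after seeing the data, 10 were called higher (6.41%, against 3.48%) and 4 lower (2.56%, against 2.16%). These small counts were not compared by a test.

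The median member was shorter than the median tested gene, and a larger share of members was counted over 1 segment, though 82 members had several segments. Their median counted length, the length over which reads were counted, was 1153 bp, against 1801 bp over the tested genes and 1660 bp over the tested genes with a mutant mean of at least 5 FPKM. Their median span from start to end was 1385 bp against 3593 and 3340 bp. Of the members, 51 (38.3%) were counted over 1 segment equal to their span, as a gene without introns would be, against 17.0% of the tested genes. A counted length of at most 500 bp was found for 17 members (12.8%) and 6.54% of the tested genes. Of the tested genes called higher that are not members, 27.9% were single-segment genes. Their medians were 1488 bp counted and 2044 bp in span, also below those of all tested genes.

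Short genes more often have 1 segment, so the shares were also taken by length. Among genes counted over up to 1000 bp, 39 of 52 members (75%) and 49.5% of the tested genes had 1 segment. Between 1000 and 2000 bp these shares were 17.2% of 64 members and 14.4% of the tested genes. Above 2000 bp, 1 of 17 members (5.88%) and 3.14% of the tested genes had 1 segment. The wider gap between members and tested genes was in the short genes.

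**Figure D5:**
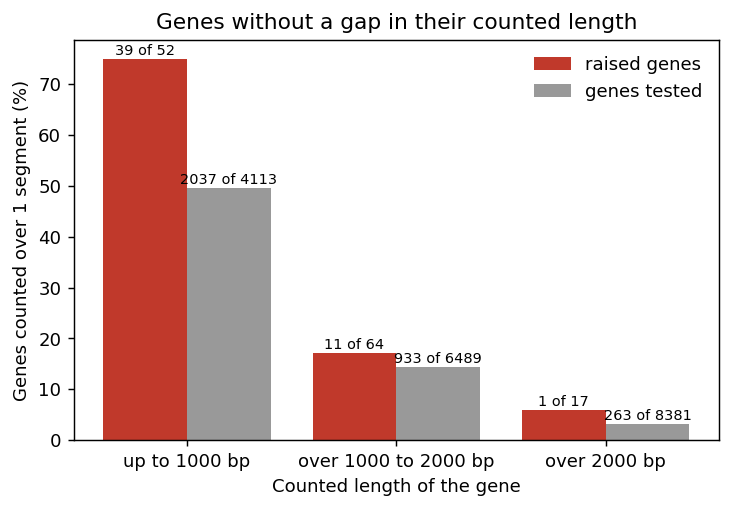
Percentage of genes counted over 1 unbroken segment, in 3 classes of counted length, for the raised genes (red) and all genes tested (grey), with the numbers of genes above the bars. Up to 1000 bp the shares are 75% and 49.5%, and in the longer classes they lie closer together.

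Single-segment members and the others had similar medians of the difference. For the former it was 1.83 on the log2(FPKM + 1) scale over 51 genes, against 1.86 over the 82 members with several segments. The median mutant mean of the single-segment members was lower, at 15.0 against 24.3 FPKM, and so was their median wild-type mean, at 3.37 against 5.56 FPKM. Of the 20 members with the largest differences, 5 were single-segment genes. For the median single-segment member, mutant replicate 3 stood at 0.739 of the mean of replicates 1 and 2, against 0.607 for the other members.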

How the data were processed

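The authors deposited 1 table per library with a value, position, strand and span for each gene. The header names no unit. The values are FPKM: per the deposited values, each is a whole number of reads divided by a whole-number gene length and a library total. The search for such lengths gave whole reads in all 6 libraries for 31465 of 31470 genes (99.98%), within a tolerance of 0.0001 reads plus a rounding allowance, and solved 1.9% of 1000 genes with perturbed values. Reads that share a divisor with the length come out divided by it. Bowtie2 2.2.3, HISAT2 2.1.0, HTSeq 0.6.0 and B73 RefGen_v4 are listed in the submitters' processing notes. What each tool did, the strand setting and the filters are not given in the labels or headers, so reads of overlapping genes on opposite strands and of near-identical gene copies are uncertain.

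Groups came from the sample titles. Genes with at least 1 FPKM in at least 3 libraries were tested by fitting the log2(FPKM + 1) values of all 6 libraries in limma (version 3.58.1, R 4.3.3), with a trend of the spread on intensity. The tests were two-sided, with Benjamini-Hochberg adjustment over all genes tested. The fit was also run on simulated reads without effects shared by a library, so that run cannot show how such effects alter the calls. Differences on the log2(FPKM + 1) scale understate those of low genes. Named members were the 20 largest differences, 10 highest mutant means, members within 100 kb of each other, members with at most 1 read in each wild-type library and 3 genes on each side of the difference limit. Of the 20 and the 10, all have values in the text. Other named genes, among them the pairs up to 200 kb apart, were chosen after their values were seen. The members and lists were chosen with earlier results of these data known. Gene families, tissue markers and promoter motifs needed gene names or sequences and were not used here.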

Additional observations from a re-analysis of the deposited data

How the results depend on the processing

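Against 133 genes, 217 met the rule with median-of-ratios scaling, 272 with a difference limit of 1 and 47 with a limit of 2, and 110 to 213 without 1 library. Upper-quartile scaling gave 196, a pseudocount of 0.1 gave 168, and allowing overlap or a mutant mean of 1 FPKM gave 151 each. Against 1262 genes called changed by limma (361 higher, 901 lower), no filter gave 292, a filter of FPKM 5 gave 748 and leaving out 1 library gave 50 to 1373. Median-of-ratios scaling gave 661 higher and 410 lower, and upper-quartile scaling 585 and 500, which move the median of all genes to 0.03 and -0.03. The replicate block gave 715 changed genes and 110 members called, beside 1.30% of all genes called higher. Deviations of mutant and wild-type libraries with the same number correlated at 0.01, -0.38 and -0.33. Deviations within a group are tied to one another and the correlations had no reference, so they do not decide on pairing by number. Across numbers, the highest correlation was 0.44, for mutant replicate 3 with wild-type replicate 2. The next was 0.27, for mutant replicate 2 with wild-type replicate 3. No library correlated best with its own number. Of the 133 members, 59 were called higher with no filter, beside 0.397% of all genes, and 17 to 124 without 1 library, beside 0.132 to 3.34%. The count was 112 by limma-voom on recovered reads, beside 2.02%, and 126 with either scaling, beside 3.48 and 3.08%. The cause was not tested, except that fewer samples or more genes were tested where these were left out or added. The median difference of the members ran from 1.72 to 2.104. The median spread between replicates of a single member was 0.493, which is not the spread of a median over 133 genes. The difference in summed FPKM ran from 2931 to 3866, beside a spread between replicates of 707 FPKM. Leaving out 1 of 3 libraries cannot move a mean by its full spread, so for those settings the range shows no stability. Of 333 values of 37 named genes (the 35 of the naming rule and 2 more from pairs up to 200 kb apart) under alternatives, 15 moved by more than the gene's spread between replicates. Of these, 9 moved with a pseudocount of 0.1 and 6 with a scaling, and 0 changed sign. Leaving out 1 of 3 libraries cannot shift a gene by that much, and 0 values moved so. Groups that lie apart keep their sign without 1 library or with another pseudocount. For those settings the outcome was fixed in advance and shows no stability. Of the genes next to a member, 10 were called higher with either scaling, chosen after seeing the data, against 6. Motifs were not run. With 3 libraries a group, the precision of each value is set mainly by the spread between libraries.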
